A study of Mus musculus with 25 samples.

Results

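The 16 arrays described here are the late arrays of a study of gonadal white fat, those taken after 8 or 12 weeks of diet, set against each other by how much albumin transcript they carried. The members were chosen by the deposited Alb level itself: an array with Alb above a log2 threshold that fell in the gap between 12.96 and 11.84 went to the first set, which gave 11 high-Alb arrays and 5 low-Alb arrays, out of 25 arrays in all. The remaining 9 arrays, from chow-fed mice and from 4 weeks of diet, served only as a background for levels. Every array came from the fat of 1 male mouse, heterozygous for apoE3L.CETP, which joins the APOE3-Leiden transgene with human CETP and gives the mouse a lipoprotein profile nearer to the human one; the low-fat controls carried these transgenes too. Feeding started at an age of 12 weeks. The high-fat diet (HFD) held 60% fat, 20% carbohydrate and 0.25% cholesterol, and the low-fat diet (LFD) held 10% fat and 70% carbohydrate. The late groups were HFD for 8 weeks, LFD for 8 weeks, HFD for 12 weeks and LFD for 12 weeks, with 4 arrays each. The mice of the 8-week groups were labelled as 20 weeks old and those of the 4-week groups as 16 weeks old. The mice of the 12-week groups were labelled as 34 weeks old, which does not follow from the start and length of the diet. The early groups were HFD for 4 weeks (3 arrays), LFD for 4 weeks (4 arrays) and chow at 12 weeks of age (2 arrays). The labels give 1 mouse per array but no cage, dissection or hybridisation batch.

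Albumin is made almost only by hepatocytes, the main cells of the liver, which also secrete fibrinogen, apolipoproteins and most other plasma proteins and carry out urea, bile acid and drug metabolism. A fat depot holds adipocytes, their progenitors, vessels and immune cells, and white fat is known for storing triglyceride and secreting hormones such as leptin. Hepatocyte genes are kept on by a small set of transcription factors, among them HNF1, HNF4, FOXA and C/EBP proteins, whose binding sites lie in the promoters of plasma protein genes.

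Short stretches around the start sites of 5 of the genes are given because the sets were told apart by transcripts of this kind. They were taken from RefSeq (GRCm38.p6) and run 5′ to 3′ on the gene's strand. Each spans 250 bases before the start site to 50 bases after it. Shown are the rule's marker genes Alb, Ahsg and Hamp, the apolipoprotein gene Apob, and Cyp2c70. Cyp2c70 had the largest difference among those of the 322 genes described below whose promoter held the HNF4 letters. Genes of a single chromosome were left out of that choice. Alb lies at chr5:90460620-90460919 on the plus strand, Ahsg at chr16:22891765-22892064 on the plus strand, Apob at chr12:7977427-7977726 on the plus strand, Hamp at chr7:30943980-30944279 on the minus strand and Cyp2c70 at chr19:40187237-40187536 on the minus strand. Capitals mark matches to the motifs searched. On both strands these were the HNF1 letters GTTAAT, HNF4 CAAAGTCCA, C/EBP TTNNGCAAT and FOXA TGTTTAC. The TATA box TATAAA was searched on the gene's strand. GTTAAT is only part of a full HNF1 site.
Alb: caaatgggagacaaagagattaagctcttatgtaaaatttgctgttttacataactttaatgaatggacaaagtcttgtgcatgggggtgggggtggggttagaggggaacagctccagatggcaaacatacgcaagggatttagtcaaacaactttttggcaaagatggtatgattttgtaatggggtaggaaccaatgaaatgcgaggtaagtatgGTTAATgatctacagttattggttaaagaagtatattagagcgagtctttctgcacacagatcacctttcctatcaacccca
Ahsg: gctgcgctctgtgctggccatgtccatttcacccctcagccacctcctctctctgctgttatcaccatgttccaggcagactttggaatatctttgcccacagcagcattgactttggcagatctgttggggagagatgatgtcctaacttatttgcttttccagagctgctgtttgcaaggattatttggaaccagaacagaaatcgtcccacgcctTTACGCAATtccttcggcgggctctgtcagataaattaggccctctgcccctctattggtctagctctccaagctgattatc
Apob: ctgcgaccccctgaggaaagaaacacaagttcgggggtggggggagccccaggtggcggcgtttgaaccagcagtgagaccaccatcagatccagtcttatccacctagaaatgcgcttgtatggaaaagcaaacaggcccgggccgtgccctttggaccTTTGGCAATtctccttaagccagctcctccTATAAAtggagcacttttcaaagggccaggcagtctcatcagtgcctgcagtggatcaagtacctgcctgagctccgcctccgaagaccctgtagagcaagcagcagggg
Hamp: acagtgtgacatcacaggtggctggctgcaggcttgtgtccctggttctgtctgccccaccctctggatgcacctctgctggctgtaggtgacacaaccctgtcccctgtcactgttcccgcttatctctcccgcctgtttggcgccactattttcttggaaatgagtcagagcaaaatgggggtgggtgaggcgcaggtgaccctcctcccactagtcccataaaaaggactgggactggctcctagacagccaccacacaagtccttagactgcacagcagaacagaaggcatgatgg
Cyp2c70: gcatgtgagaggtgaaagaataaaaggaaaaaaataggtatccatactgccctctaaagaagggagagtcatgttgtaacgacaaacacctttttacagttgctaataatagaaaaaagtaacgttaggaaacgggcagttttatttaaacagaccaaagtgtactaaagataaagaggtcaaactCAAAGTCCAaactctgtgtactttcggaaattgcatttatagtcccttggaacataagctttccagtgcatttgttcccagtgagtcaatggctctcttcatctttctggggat
Alb held the HNF1 letters 32 bases before its start, Ahsg a C/EBP match beginning at the same distance. Apob held a C/EBP match and a TATA box, and Cyp2c70 the HNF4 letters. None of these letters were found in the Hamp window. Of 322 genes that were at least 2-fold higher in the high-Alb arrays with no overlap between the sets (described below), 256 had RefSeq promoters, 307 in number because some genes have several start sites. The HNF1 letters were in 20.8% of those 307 and in 7.1% of all 32851 promoters of this length. HNF4 letters were in 4.56% against 0.475%, and C/EBP letters in 7.82% against 2.18%. FOXA letters were in 6.51% against 3.65% and the TATA box in 14% against 8.32%. Among 26 promoters of secreted hepatocyte proteins the HNF1 letters were in 7 and the HNF4 letters in 0. C/EBP was in 4 of those 26, FOXA in 3 and the TATA box in 6. Among 16 promoters of mature adipocyte genes the HNF1 and HNF4 letters were in 0, C/EBP and FOXA in 2 each and the TATA box in 1. The shares for C/EBP and FOXA were thus no lower in the adipocyte promoters than in the 307. The motifs can overlap, and a match is a description of letters only.

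The depth of the comparison was set by the number of arrays. The deposited table held 34472 transcript clusters (the array's unit, roughly 1 gene) with log2 values between 1.73 and 14.13, and 22180 genes were named by clusters with a single symbol. Array medians ran from 5.04 to 5.36, and any pair of arrays correlated at 0.909 to 0.9917 over all clusters. Genes of mature adipocytes, the labelled tissue, averaged 11.21 to 11.72 in the high-Alb arrays, 11.36 to 11.81 in the low-Alb arrays and 10.389 to 11.705 in the early arrays. Genes of the epididymis, which adjoins this depot, averaged 12.20 in chow array 1 and 10.55 in HFD 4-week array 1, and at most 4.27 in the late arrays.

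The rule itself split the arrays by Alb, so the Alb values are a description. Alb ran from 12.96 to 13.62 with a median of 13.34 in the high-Alb arrays. Among the low-Alb arrays, those of the 8-week groups had 10.46 (HFD array 1), 8.41 and 9.06 (LFD arrays 3 and 4), and those of the 12-week groups had 6.45 (HFD array 3) and 11.84 (LFD array 3). The array just inside the threshold was HFD 12-week array 2 at 12.96, and the one just outside was LFD 12-week array 3 at 11.84. Chow arrays had 6.53 and 6.60, and the 4-week arrays had 6.95 to 11.64.

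The low-Alb arrays were therefore not all free of liver transcripts, and the sets are named here by their Alb level. Ahsg, which encodes the plasma protein fetuin-A, stood at 8.53 in HFD 8-week array 1 and 8.93 in LFD 12-week array 3, against 5.11 and 5.57 in the chow arrays, while the other low-Alb arrays had 5.36, 6.51 and 5.60. Hamp, the gene of the iron-regulating hormone hepcidin, was at 7.45 and 8.98 in those 2 arrays and at 3.42, 4.75 and 3.40 in the other 3, against 2.82 and 3.61 in the chow arrays. With both of those arrays left out, the difference between high-Alb and low-Alb arrays grew to 8.43 for Hamp, 6.50 for Ahsg and 5.54 for Alb, against 6.58, 5.25 and 4.15 with all 16 arrays.

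**Figure D1:**
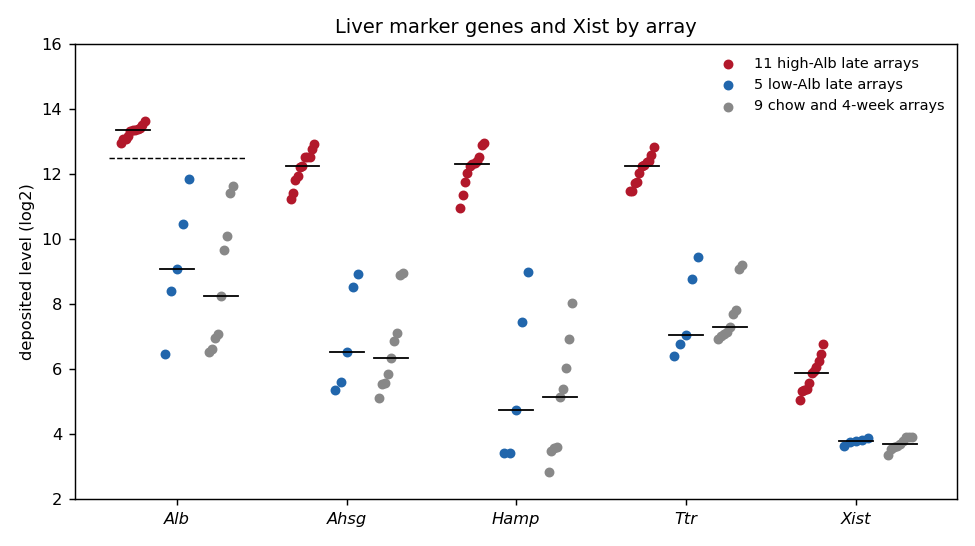
Deposited log2 level of Alb, Ahsg, Hamp, Ttr and Xist in each array. Points are arrays, bars are medians and the dashed line is the Alb threshold; the 11 high-Alb arrays lie above every other array for all 5 genes, and for Xist the 5 low-Alb arrays sit between 3.64 and 3.86.

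Diet and time on diet, which the rule did not use, were spread over both sets. Among HFD arrays 6 of 8 were high-Alb and among LFD arrays 5 of 8 (Fisher's exact test, two-sided, p = 1; 1 after adjustment over 2 tests). At 12 weeks 6 of 8 arrays were high-Alb and at 8 weeks 5 of 8 (exact p = 1; 1 after adjustment). Each of the HFD 8-week, HFD 12-week and LFD 12-week groups had 1 low-Alb array and the LFD 8-week group had 2. By the replicate number in the labels, the high-Alb arrays were 3 of 4 of number 1, 4 of 4 of number 2, 1 of 4 of number 3 and 3 of 4 of number 4; the labels do not say what the number stands for.

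In a limma fit with diet, time and the split, 353 of 22180 genes (1.59%) were at least 2-fold (1 on the log2 scale) higher in the high-Alb arrays and 2 (0.00902%) at least 2-fold lower. Since the sets were made from these values, these differences carry no test, and nothing is read from the shares. Every high-Alb array lay above every low-Alb array for 360 genes (1.62%), and both criteria held for 322 (1.45%), of which 11 had provisional names. Of those 322 genes, 120 differed by 1 to 2, 91 by 2 to 3, 53 by 3 to 4, 40 by 4 to 5 and 18 by 5 or more on the log2 scale. For 255 of the 322 genes, the high-Alb arrays also lay above all 9 chow and 4-week arrays. The median difference over all genes was -0.02. In bulk tissue, fewer cells of a type and less RNA per cell cannot be told apart.

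The largest difference belonged to Hamp. Its level was 10.95 to 12.94 with a median of 12.30 in the high-Alb arrays, against 3.40 to 8.98 with a median of 4.75 in the low-Alb arrays, a difference of 6.58 ± 0.70 (standard error, n = 11 and 5). Mup20, a urinary pheromone protein of male mice made in the liver, followed at 5.70 ± 0.60, with 10.61 to 12.33 in high-Alb arrays and 3.78 to 8.88 in low-Alb arrays. Behind them came the protease inhibitor Serpina1c at 5.63 ± 0.67, the macroglobulins Mug1 at 5.57 ± 0.49 and Pzp at 5.47 ± 0.47, Apob, the backbone of liver lipoproteins, at 5.55 ± 0.46, and the carboxylesterase Ces1c at 5.49 ± 0.47. The fibrinogen chains Fgg and Fgb differed by 5.41 ± 0.48 and 5.23 ± 0.46, Cyp2j5 by 5.19 ± 0.37, Serpina1d by 5.17 ± 0.50, the fatty acid binding protein Fabp1 by 5.17 ± 0.44 and Mup3 by 5.12 ± 0.48. Members of the Mup, Serpina1, Cyp2 and Cyp4a families have near-identical copies, so their probes may read more than 1 gene.

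The hepatocyte lists were higher nearly throughout. All 28 measured genes of secreted hepatocyte proteins were at least 2-fold higher in the high-Alb arrays with no overlap, with a median difference of 4.41 on the log2 scale. That list holds Alb, for which the rule itself excluded overlap, and the rule's other markers Ahsg, Ttr and Hamp. Of 29 measured metabolic enzymes and transporters 23 met both criteria (median 3.88), among them the urea cycle enzyme Cps1 at 5.12 ± 0.44, the transporter Slco1b2 at 5.05 ± 0.38 and tyrosine aminotransferase, Tat, at 4.97 ± 0.41. For comparison, both criteria held for 1.45% of all genes. The bile acid and sterol export list had 8 of 10 genes at least 2-fold higher, all 8 without overlap, led by Cyp7a1, the rate-limiting enzyme of bile acid synthesis, at 4.47 ± 0.35, the bile acid importer Slc10a1 at 3.88 ± 0.32 and the bile salt export pump Abcb11 at 3.70 ± 0.29.

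Hepatocyte transcription factors differed by less. Of 12 measured factors 8 were at least 2-fold higher and 7 did not overlap, with a median difference of 1.25 and a largest one of 2.23 ± 0.23 for Nr1i3, the drug-sensing nuclear receptor CAR. Prox1 differed by 1.93 ± 0.26, Hnf4a by 1.86 ± 0.22 and the bile acid receptor Nr1h4 by 1.65 ± 0.23. Hnf4a stood at 6.55 to 8.30 with a median of 7.38 in the high-Alb arrays, against 5.25 to 5.98 with a median of 5.44 in the low-Alb arrays.

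Genes of the liver's periportal zone had a median difference of 2.08 over 9 measured genes and those of its pericentral zone 0.65 over 11. Among the periportal genes Hsd17b13 and Arg1 are also hepatocyte enzymes, at 3.28 ± 0.29 and 3.11 ± 0.31. The pericentral list holds genes that fat expresses as well, and its lowest member differed by -0.17.

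Some markers of other liver cells were higher too. Of 7 markers of Kupffer cells, the macrophages of the liver, 3 were at least 2-fold higher: Cd5l at 1.74 ± 0.22, Clec4f at 1.25 ± 0.17 and Vsig4 at 1.06 ± 0.20, the last with overlapping sets, and the lowest of the 7 differed by -0.12. Clec4f ran from 6.07 to 7.34 in the high-Alb arrays and from 5.18 to 5.45 in the low-Alb arrays. In the sinusoidal endothelium list, whose lowest gene differed by -0.05, 2 of 7 genes reached 2-fold, the lectin Clec4g at 1.89 ± 0.23 and the scavenger receptor Stab2 at 1.09 ± 0.19, and among 6 stellate cell genes only the vitamin A enzyme Lrat did, at 1.26 ± 0.22. None of 6 bile duct (cholangiocyte) genes did, with a median of -0.12.

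Lists for other organs held no gene that was 2-fold higher: 0 of 7 for pancreatic acinar cells, 0 of 6 for kidney, 0 of 6 for skeletal muscle, 0 of 9 for epididymis, 0 of 7 for ovary, 0 of 6 for mammary epithelium and 0 of 4 for uterus and oviduct. In the small intestine list 2 of 6 were, Fabp2 at 2.31 ± 0.27 and Apoa4 at 1.86 ± 0.23, both of which mouse liver also expresses. Fat itself did not differ by 2-fold in any listed gene: 0 of 15 mature adipocyte genes (median -0.05), 0 of 8 progenitor genes (median -0.09), 0 of 20 general macrophage genes (median -0.22), 0 of 14 genes of lipid-associated macrophages (median -0.295) and 0 of 23 matrix genes (median -0.15). Among 17 genes of de novo lipogenesis 1 was, the liver-type pyruvate kinase Pklr at 2.24 ± 0.30.

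**Figure D2:**
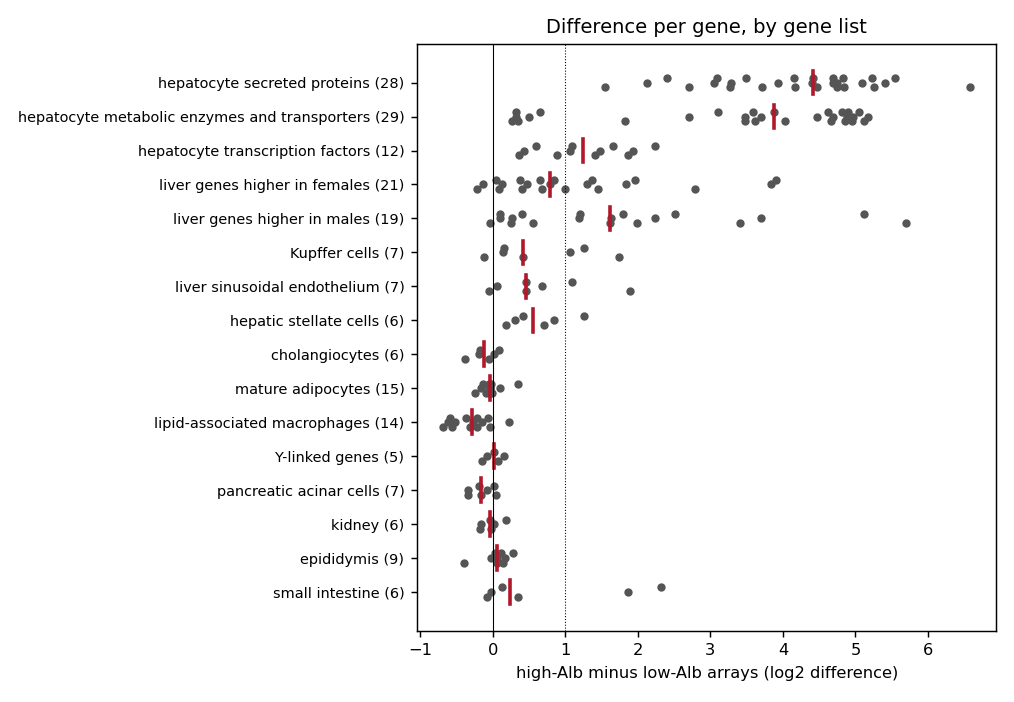
Difference between high-Alb and low-Alb arrays for each measured gene of 16 lists, in log2 units, with the number of measured genes in brackets. Points are genes, red bars list medians, the solid line is 0 and the dotted line a 2-fold difference; medians run from 4.41 for secreted hepatocyte proteins to -0.295 for lipid-associated macrophages.

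Only 4 genes (0.018%) were lower in every high-Alb array than in every low-Alb array, and all differed little: Gsx2 by -0.34 ± 0.11, Zfp362 by -0.34 ± 0.08, Oprl1 by -0.31 ± 0.09 and Dcp1a by -0.31 ± 0.07. Dcp1a, a subunit of the mRNA decapping complex, was at 7.44 to 7.74 in the high-Alb arrays and 7.75 to 8.04 in the low-Alb arrays. The highest high-Alb value thus lay just below the lowest low-Alb value, by less than the spread within either set.

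Xist, the noncoding RNA that coats the inactive X chromosome of female cells, separated the sets although all mice were labelled male. It was 5.03 to 6.76 with a median of 5.87 in the high-Alb arrays. The low-Alb arrays had 3.78 (HFD, 8 weeks), 3.74 and 3.64 (LFD, 8 weeks), 3.86 (HFD, 12 weeks) and 3.82 (LFD, 12 weeks), and the 9 early arrays 3.36 to 3.92. The difference was 2.07 ± 0.23. The arrays with an intermediate Alb level stayed within that low range: Xist was 3.61 where Alb was 11.40 (HFD, 4 weeks), 3.79 where it was 11.64 (LFD, 4 weeks) and 3.82 where it was 11.84 (LFD, 12 weeks). In the same order, their means over 57 hepatocyte genes were 6.34, 6.44 and 6.65, well below the 8.27 of the lowest high-Alb array. Whether Xist could be seen at that amount of liver transcript was not tested. Xist was alone in this: over the 3 measured X inactivation genes, Xist among them, the median difference was 0.07 and the lowest -0.05. The 5 measured X-linked partners of Y genes differed by -0.15 to 0.11, with a median of -0.08. The mean of 5 Y-linked genes was 5.89 to 6.15 in the high-Alb arrays and 6.01 to 6.12 in the low-Alb arrays. In the early arrays it was 6.05 to 6.37, and the median difference of those 5 genes was 0.01.

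Of 21 measured liver genes known to be higher in female than in male mice, 8 were at least 2-fold higher in the high-Alb arrays and 9 did not overlap, where 1.59% and 1.62% of all genes did so. The median difference of the 21 was 0.78 and the lowest -0.22. Cyp2a4 was at 6.56 to 9.43 in high-Alb arrays and 3.86 to 5.47 in low-Alb arrays (difference 3.91 ± 0.36), and Cyp2b9, a cytochrome P450 that adult male mouse liver expresses weakly, at 6.11 to 8.60 and 2.94 to 4.35 (3.84 ± 0.35). Cyp2c69 differed by 2.79 ± 0.28 and the second hepcidin gene Hamp2 by 1.96 ± 0.20. The mean over the 21 genes was 5.24 to 6.27 in the high-Alb arrays, 4.59 to 4.74 in the low-Alb arrays and 4.45 to 4.67 in the early arrays.

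Of 19 measured liver genes known to be higher in males, 12 were at least 2-fold higher in the high-Alb arrays and 9 did not overlap, among them Mup20, Mup3, the transporter Slco1a1 at 3.70 ± 0.29 and Serpina1e at 3.41 ± 0.36. The mean over the 19 genes was 6.31 to 7.59 in the high-Alb arrays. Of the low-Alb arrays, the pair with Alb above 10 had 5.67 and 5.71 and the others 5.24, 5.43 and 4.83. The 4-week arrays with the highest Alb had 5.79 (HFD) and 5.93 (LFD), and the chow arrays 4.78 and 4.84. Mup20 stood at 10.61 in HFD 12-week array 2, the lowest of the high-Alb arrays, and at 10.58 in LFD 4-week array 1, so that the pair had like levels. Apob differed between them, at 10.33 in the high-Alb array against 7.68 in the 4-week one, as did Cyp2b9, at 6.11 against 3.47. The mean of the male list differed as well, at 6.31 against 5.93. The value of 3.47 lies within the Cyp2b9 range of the low-Alb arrays (2.94 to 4.35), and the comparison is of single arrays. Where the liver transcripts came from was not tested.

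**Figure D3:**
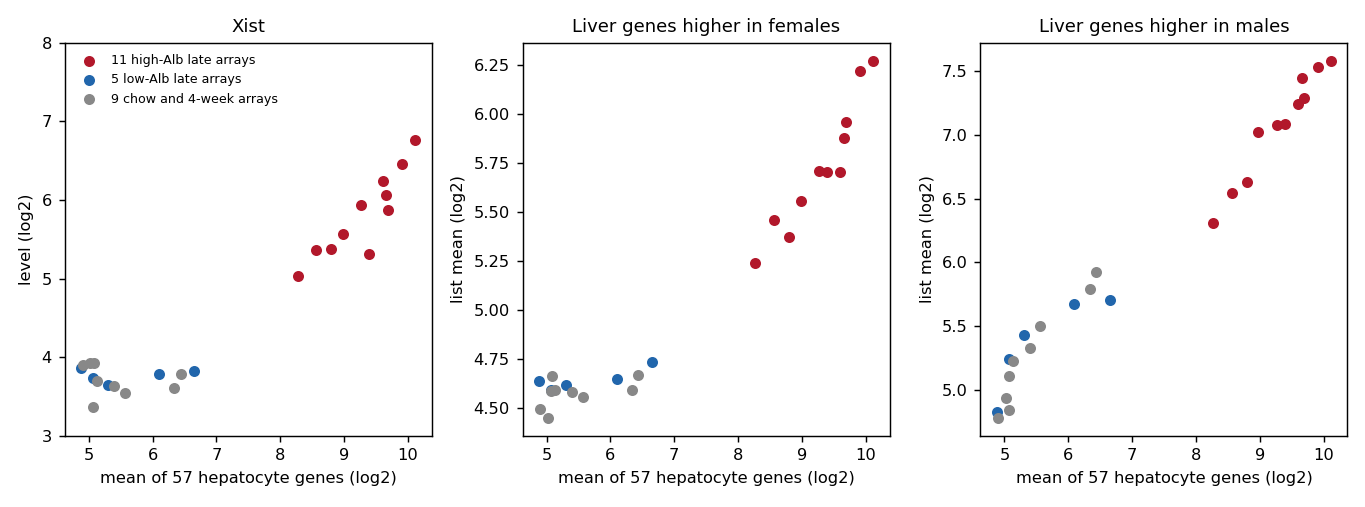
Level of Xist, mean of 21 liver genes higher in females and mean of 19 liver genes higher in males (all log2), against the mean of 57 hepatocyte genes in each of the 25 arrays. Below a hepatocyte mean of 7 Xist stays between 3.36 and 3.92 and the female list between 4.45 and 4.74, while the male list ranges from 4.78 to 5.93; in the 11 high-Alb arrays all 3 are higher.

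Within the 11 high-Alb arrays, the amount of hepatocyte transcript differed by array in much the same order for most genes. Of 57 measured hepatocyte genes, Alb among them, 51 had all high-Alb arrays above all low-Alb arrays. Over those 51, LFD 12-week array 1 was the highest of the 11 for 43 and HFD 12-week array 2 the lowest for 45, and among the low-Alb arrays LFD 12-week array 3 was the highest for 48. The mean of the 57 genes was 9.60 to 9.69 in the HFD 8-week high-Alb arrays, 8.98 and 9.39 in the LFD 8-week ones, 8.27, 8.57 and 8.79 in the HFD 12-week ones, and 9.27, 9.91 and 10.11 in the LFD 12-week ones. Alb ran over a narrower range of the 11 arrays (12.96 to 13.62) than Ahsg (11.22 to 12.93) or Hamp (10.95 to 12.94).

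**Figure D4:**
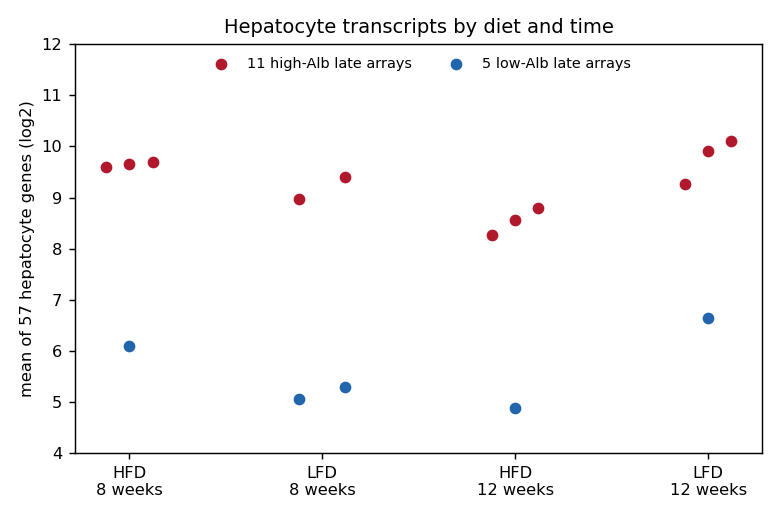
Mean of 57 hepatocyte genes (log2) in each late array by diet and time. Points are arrays; among high-Alb arrays (red) HFD lies above LFD at 8 weeks and below LFD at 12 weeks, and the 5 low-Alb arrays (blue) lie between 4.88 and 6.65.

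A diet by time interaction was tested in these 11 arrays, in a test added after the values had been seen. It rested on 3 HFD and 2 LFD arrays at 8 weeks and 3 of each diet at 12 weeks. Of the 52 named calls, 0 were kept in all settings. In limma with the interaction term, 260 of 22180 genes (1.17%) passed an adjusted p of 0.05, 3 (0.0135%) with a diet difference (HFD minus LFD) that was higher at 12 than at 8 weeks and 257 (1.16%) with one that was lower. Of the 322 liver-raised genes 209 were among the 257, and 51 of the called genes lay outside the 322. Most of the 322 shared an array order: LFD 12-week array 1 was the highest of the 11 for 256 and HFD 12-week array 2 the lowest for 223. The 209 calls are therefore not separate results. Secreted hepatocyte proteins had 20 of 28 called lower and none higher (median interaction -1.83), metabolic enzymes 21 of 29 (median -1.97), bile acid genes 7 of 10 and transcription factors 6 of 12, against a median of 0.03 over all genes.

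The largest interactions among genes with established names were those of Cyp2b13 (-2.90 ± 0.43, adjusted p = 0.013), Cyp3a25 (-2.89 ± 0.46, adjusted p = 0.013), the glucuronosyltransferase-family gene Ugt3a1 (-2.84 ± 0.48, adjusted p = 0.016), Ly6g2 (-2.72 ± 0.41, adjusted p = 0.013), Cyp2c38 (-2.56 ± 0.49, adjusted p = 0.026), the carnitine synthesis enzyme Bbox1 (-2.48 ± 0.44, adjusted p = 0.018), Cyp2a4 (-2.42 ± 0.47, adjusted p = 0.026) and the fatty acid hydroxylase Cyp4a14 (-2.42 ± 0.31, adjusted p = 0.012). Cyp2b13 was at 6.59, 6.35 and 6.63 in HFD and 5.93 and 5.08 in LFD high-Alb arrays at 8 weeks. At 12 weeks it was 5.26, 4.53 and 4.99 in HFD and 7.29, 6.98 and 6.14 in LFD high-Alb arrays. The diets did not overlap at either time, and HFD was the higher at 8 weeks and the lower at 12. Of the rule's markers, Ahsg (-1.58, adjusted p = 0.018) and Ttr (-1.46, adjusted p = 0.013) were called and Hamp (-1.36, adjusted p = 0.35) was not. Alb is not read as a gene here, since the 11 arrays were selected on it, though it stays among the secreted protein genes counted. Xist was called at -1.75 (adjusted p = 0.014). The 3 genes called with a positive interaction were the vomeronasal receptor gene Vmn2r60 (1.10 ± 0.18, adjusted p = 0.015), the microRNA gene Mir10b (0.90 ± 0.19, adjusted p = 0.036) and the tight junction gene Cldn8 (0.82 ± 0.17, adjusted p = 0.039), all with low levels, at most 3.92 in the high-Alb arrays.

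At 12 weeks the HFD high-Alb arrays were lower than the LFD ones in 23 of 28 secreted protein genes (median -1.33) and 25 of 29 metabolic genes (median -1.32), with 918 genes higher (4.14%) and 882 lower (3.98%) over the whole table. At 8 weeks none of either list was called (medians 0.51 and 0.56), with 93 genes called higher (0.419%) and 118 lower (0.532%). Of the 51 separated hepatocyte genes, 44 had every HFD array above every LFD array at 8 weeks and below at 12 weeks, as did 359 of all genes (1.62%). The count of calls rested on few arrays. Without LFD 8-week array 2 nearly all calls were lost, while without LFD 8-week array 1 the count changed little. Either fit left 1 array in the LFD 8-week group, whose spread was taken to be that of the others. The size of that group was thus the same in both fits, and the loss depended on which array was left out. Leaving out other arrays singly also moved the count by over 1.5 times: it was 128, 166 and 119 without HFD 8-week array 2, 3 or 4, 144 and 141 without HFD 12-week array 2 or 4, and 132, 97 and 410 without LFD 12-week array 1, 2 or 4.

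Averaged over both times, few liver transcripts were called between the diets. Of the 322 liver-raised genes, 0 were called higher and 2 lower in HFD than in LFD over the 16 arrays (time and the split in the fit), where 14.2% of all genes were called, 1753 higher (7.9%) and 1396 lower (6.29%). The 2, named after their values were seen, were Mttp, which loads lipid onto ApoB (-0.67 ± 0.20, adjusted p = 0.029), and the hydroxyproline enzyme gene Prodh2 (-0.54 ± 0.14, adjusted p = 0.016). Among the 11 high-Alb arrays alone none of the 322 was called in either direction, against 8.42% of all genes, 1026 higher (4.63%) and 842 lower (3.8%). Cyp2f2, a cytochrome P450 of lung and periportal liver, is not among the 322 because its sets overlapped. It was 8.47 to 9.51 in HFD and 9.65 to 11.07 in LFD high-Alb arrays, and 5.21 and 6.21 in HFD against 8.65, 8.78 and 9.82 in LFD low-Alb arrays. The diets did not overlap in either set, and HFD minus LFD was -1.89 ± 0.33 (adjusted p = 0.00054), a call that was lost without the split in the fit (-1.63, adjusted p = 0.067).

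The diet differences of fat genes were seen on both sides of the Alb split. Elovl6, a fatty acid elongase, was 8.93 to 9.57 in HFD and 11.48 to 11.95 in LFD high-Alb arrays. In the low-Alb arrays it was 9.32 and 9.36 in HFD against 11.27, 11.31 and 12.70 in LFD. The difference over 16 arrays was -2.43 ± 0.16 (adjusted p = 6.1e-08), at -2.45 ± 0.20 in high-Alb and -2.38 ± 0.30 in low-Alb arrays. Acaca, the first committed enzyme of fatty acid synthesis, fell by 2.26 with a standard error of 0.11 (adjusted p = 1.8e-09). De novo lipogenesis fell in 14 of 17 measured genes over the 16 arrays and in 13 of 17 within the 11, where 6.29% and 3.8% of all genes fell, with a median diet difference of -0.87 in high-Alb and -1.16 in low-Alb arrays; Acacb (-1.90 ± 0.12) and Acly (-1.94 ± 0.17) were among the 14. The other largest decreases were those of Cldn22 (-1.97 ± 0.15), the lipase regulator Angptl8 (-1.95 ± 0.35) and Fam13a (-1.91 ± 0.21). Cholesterol synthesis genes fell in 9 of 15 and rose in 1, Hmgcs1.

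Slc5a7, a choline transporter, had the largest increase. Its level was 8.06 to 9.31 in HFD and 4.62 to 6.20 in LFD high-Alb arrays, and 9.80 in both HFD low-Alb arrays against 4.28, 4.81 and 4.83 in the LFD ones, so that the diets did not overlap in either set. HFD minus LFD was 3.83 ± 0.28 (adjusted p = 1.8e-07). Sfrp5, a secreted Wnt antagonist of expanding fat, rose by 3.73 ± 0.32, and the lysosomal and macrophage genes Atp6v0d2 (3.04 ± 0.35), Gpnmb (2.96 ± 0.36) and Mmp12 (2.77 ± 0.32) rose with Rnase2a (2.84 ± 0.30), Ubd (2.68 ± 0.34) and Cdkl4 (2.63 ± 0.28). General macrophage genes rose in 17 of 20 measured over the 16 arrays and in 17 of 20 within the 11, and matrix genes in 22 of 23 and 20 of 23, where 7.9% of all genes rose over the 16 arrays and 4.63% within the 11. Median diet differences of the macrophage genes were 0.79 in high-Alb and 1.14 in low-Alb arrays. Of mature adipocyte genes 7 of 15 fell and 1, Lep, rose. The 2 sets of calls shared 1779 genes, 56.5% of the 3149 called over 16 arrays and 95.2% of the 1868 called over 11, and all 1779 had the same sign, though the sets share 11 arrays.

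**Figure D5:**
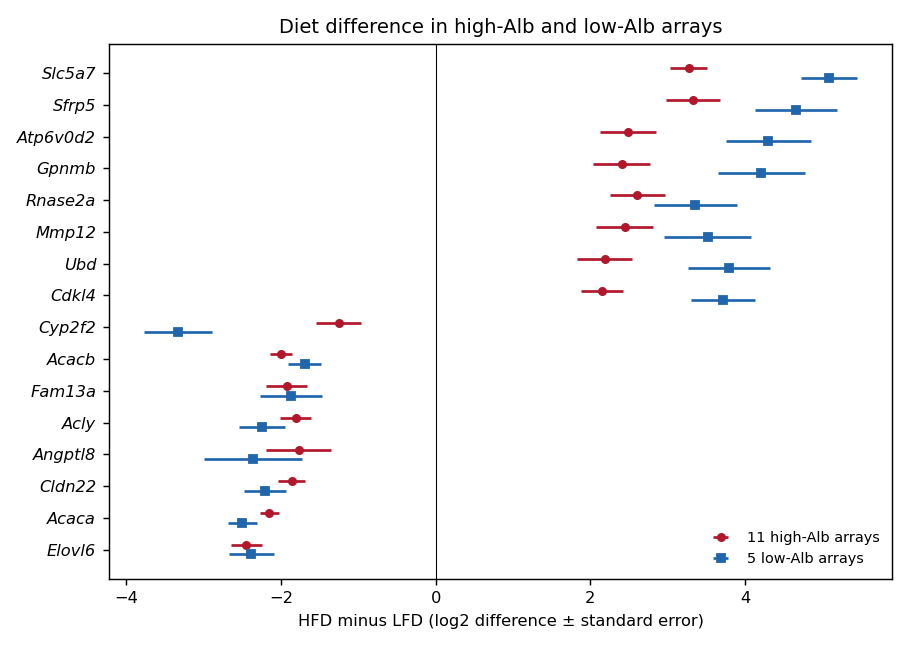
HFD minus LFD (log2 difference ± standard error) of the 8 genes with the largest increase and the 8 with the largest decrease, in the 11 high-Alb and the 5 low-Alb arrays, from the fit with a diet by split term. All 16 keep their direction on both sides, from 5.08 for Slc5a7 in low-Alb arrays to -3.33 for Cyp2f2 in low-Alb arrays. The genes were chosen for their difference over the 16 arrays, which hold both sides, so a shared direction was likely from the choice.

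Whether the diet difference itself differed between high-Alb and low-Alb arrays was tested with an interaction term. limma called 0 of 22180 genes (0.0%), and 1127 had an unadjusted p under 0.05. The 3 with the smallest p were Rnf128, a ubiquitin ligase (-2.17 ± 0.33, adjusted p = 0.14), the olfactory receptor gene Olfr344 (-1.24 ± 0.24, adjusted p = 0.34) and the peptide transporter Slc15a2 (1.26 ± 0.24, adjusted p = 0.34). Rnf128 was 4.89 to 6.26 in HFD and 4.81 to 5.37 in LFD high-Alb arrays, which overlapped, and 6.02 and 6.06 in HFD against 3.06, 3.46 and 3.77 in LFD low-Alb arrays. Leaving out HFD 12-week array 3, 1 of the 2 HFD low-Alb arrays, gave 18 calls, leaving out HFD 12-week array 1 gave 3, and leaving out HFD 12-week array 2 or LFD 12-week array 1 gave 1 each. With 2 HFD arrays in the low-Alb set, a difference between the sets was weakly constrained for any single gene.

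Time on diet was called for 159 genes over the 16 arrays (0.717%), 48 higher (0.216%) and 111 lower (0.5%) at 12 than at 8 weeks. None of 28 secreted hepatocyte genes or 29 metabolic genes was among them (median differences -0.15 and -0.22). Among genes with established names, the 8 largest differences in each direction all belonged to microRNA or olfactory receptor genes. Mir466h was at 6.85 to 7.88 at 12 weeks and 4.72 to 6.12 at 8 weeks, and rose by 2.05 ± 0.19 (adjusted p = 2.7e-05). Mir467c was at 5.61 to 7.15 at 12 weeks and 7.95 to 8.85 at 8 weeks, and fell by 1.98 with a standard error of 0.18 (adjusted p = 2e-05). Times did not overlap for either gene, and high-Alb and low-Alb arrays lay together within each time. The olfactory receptor gene Olfr310 rose by 1.77 ± 0.14 (adjusted p = 1.3e-05), with 5.01 to 6.35 at 12 weeks and 3.27 to 4.00 at 8 weeks. Mir669a-3 (1.70 ± 0.15) and Mir297a-4 (1.41 ± 0.18) rose with it, while Olfr1219 (-1.54 ± 0.20), Mir3471-1 (-1.30 ± 0.14), Olfr726 (-1.23 ± 0.14) and Mir467e (-1.21 ± 0.17) fell. The Mir297, Mir466, Mir467 and Mir669 families have near-identical copies, so their probes may read more than 1 gene, and the array does not tell hairpins from mature microRNAs. The labels give no processing batch, and a batch that followed time could not be told apart from time. Labelled age, 20 weeks in the 8-week groups and 34 weeks in the 12-week groups, could not be told apart from time either.

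Within the 11 high-Alb arrays 42 genes were called for time (0.189%), 10 higher (0.0451%) and 32 lower (0.144%). Mir466h (2.13, adjusted p = 0.0034), Mir467c (-1.78, adjusted p = 0.00098) and Olfr310 (1.66, adjusted p = 0.00077) were among them. The phosphatase gene Dusp5 (0.66, adjusted p = 0.01) and the osteoclast and macrophage fusion gene Dcstamp (0.74, adjusted p = 0.014) rose as well. The count over 16 arrays was 98 and 85 without HFD 8-week array 2 or 3, 95 and 105 without LFD 8-week array 1 or 2, and 104 without LFD 12-week array 4. That over 11 arrays was 18 to 28 without HFD 8-week array 2 or 3, either LFD 8-week array, HFD 12-week array 1 or 4, or LFD 12-week array 4, and 65 without HFD 12-week array 2.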

How the data were processed

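White fat RNA from 25 male mice was hybridised to GeneChip Mouse Gene 2.0 ST arrays, 1 mouse per array, and processed in Transcriptome Analysis Console 4.0.2, per the submitters' processing notes. The deposited values are log2 levels per transcript cluster; how they were normalized and summarised is not stated in the labels. Precision rests on the number of arrays. Genes were named from the platform annotation: of 34472 clusters 23521 had 1 symbol, 1814 several and 9137 none. Of 1082 genes with several clusters, the cluster with the highest mean was kept.

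Differences were fitted in limma 3.58.1 (R 4.3.3) with additive diet, time and Alb split. Moderated tests had a Benjamini-Hochberg adjustment over 22180 genes and a threshold of 0.05. The fits were checked on simulated data with independent noise for each gene. That check does not cover the array order that many liver genes shared. The diet by time term among the 11 high-Alb arrays was added after seeing the data. The split carries no test. Membership was compared with Fisher's exact test (scipy 1.17.1). Named genes were the rule's markers and Xist, the 14 most raised and 10 most lowered genes without overlap, the 8 largest calls in each direction elsewhere (the 3 smallest p where none was called), and up to 4 members per list; predicted and provisional names were counted only. The pair of genes at least 2-fold lower, Tm4sf19 and Olfr111, overlapped between the sets. Members and gene lists were chosen with earlier results of these data known. The p-values set each difference against the spread between arrays within these groups. With 1 array per mouse, mouse, dissection and array cannot be told apart in that spread.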

Additional observations from a re-analysis of the deposited data

Results flagged for a closer look

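The diet difference among the 11 high-Alb arrays was called as differing between 12 and 8 weeks, by the interaction term, for 260 genes. Of the genes named, it was lower at 12 weeks for Cyp2b13 (-2.90), Cyp3a25 (-2.89), Ugt3a1 (-2.84), Ly6g2 (-2.72), Cyp2c38 (-2.56), Bbox1 (-2.48), Cyp2a4 (-2.42), Cyp4a14 (-2.42), Xist (-1.75), Ahsg (-1.58) and Ttr (-1.46), and higher for Vmn2r60 (1.10), Mir10b (0.90) and Cldn8 (0.82).

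Alb was also above the chow arrays (6.53 and 6.60) in every 4-week array, which the comparisons of late arrays did not use. It was 11.40, 8.24 and 6.95 in HFD 4-week arrays and 11.64, 9.65, 7.07 and 10.10 in LFD 4-week arrays.

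In the study's own groups of 4 arrays, 1 array lay far from the other 3 in 38 of 85 tests (17 genes, the rule's markers, Xist and the most raised genes, in 5 groups), and each of the 38 was a low-Alb array. The split was drawn from Alb, and most of the other genes were chosen for their difference between its sets. This outcome was therefore largely fixed in advance and is a description only. The genes also followed much the same array order, so the 38 are not separate results. HFD 8-week array 1 stood apart at 10.46 for Alb, 8.53 for Ahsg, 7.02 for Apob, 6.44 for Ces1c, 4.53 for Cyp2j5, 5.98 for Fabp1, 7.20 for Fgb, 6.59 for Fgg, 7.45 for Hamp, 7.08 for Mug1, 7.89 for Mup20, 9.49 for Mup3, 7.30 for Pzp, 8.57 for Serpina1c, 7.61 for Serpina1d, 8.77 for Ttr and 3.78 for Xist. HFD 12-week array 3 did so at 6.45 for Alb, 5.60 for Ahsg, 4.61 for Apob, 3.88 for Ces1c, 2.91 for Cyp2j5, 4.56 for Fgb, 4.46 for Fgg, 4.02 for Mug1, 3.78 for Mup20, 5.57 for Mup3, 4.85 for Pzp, 4.14 for Serpina1c, 4.53 for Serpina1d and 6.78 for Ttr. For LFD 12-week array 3 the values were 11.84 for Alb, 8.98 for Hamp, 8.88 for Mup20, 9.89 for Mup3, 9.73 for Serpina1c, 8.78 for Serpina1d and 9.45 for Ttr. Within the 5 low-Alb arrays and within the HFD and the LFD high-Alb arrays, 0 of 51 tests of the same genes found such an array, and sets of 5 or 6 leave the test little power.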

How the results depend on the processing

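Counts of calls moved by more than 1.5 times under these settings, besides the single arrays and the replicate block given further below. For HFD minus LFD (3149) there were 910 genes with at least a 1.5-fold difference added and 876 with the study's criteria, which change the model, the adjustment and the fold threshold together (5302 genes had an unadjusted p under 0.05 in that model). For 12 minus 8 weeks (159) there were 614 over all transcript clusters and 276 with an intensity trend or with array weights, and among the 11 high-Alb arrays (42) there were 256, 78 and, with the hepatocyte mean as a covariate, 106. Of the 355 genes at least 2-fold apart, 203 were at least 4-fold apart. For the diet by time term (260) that covariate gave 0 calls (1345 at an unadjusted p under 0.05, against 2083); it is the mean of 57 genes, many of them among the calls, so the loss says nothing of a cause. Vmn2r60 was at 1.15 with it and 1.10 without it and Mir10b at 0.84 and 0.90, while it reversed Cyp1a2 (0.0687), Cyp2a4 (0.0396), Cyp2c38 (0.0601), Cyp7a1 (0.2234), Cyp7b1 (0.1734) and Saa4 (0.1032). Leaving out single arrays gave 2604 to 3186 calls for HFD minus LFD, 85 to 169 for time, 0 to 18 for the diet by split term, 1355 to 1954 and 18 to 65 for diet and time among the 11 arrays, 342 to 377 genes 2-fold apart, and 3 to 410 for diet by time. Of the named calls, 51 of 61 for HFD minus LFD, 11 of 18 for time and 0 of 52 for diet by time were kept in all settings.

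Replicate numbers showed little sign of pairing the arrays. Same-numbered arrays deviated together from their group means at a mean r of 0.067 (-0.61 to 0.618 over 24 pairs). Differently numbered arrays did so at -0.014 (-0.629 to 0.649 over 72 pairs). With the replicate block there were 3127 calls for HFD minus LFD, 132 for time, 0 for diet by split, 1236 and 12 for diet and time among the 11 arrays, 372 genes 2-fold apart and 308 for diet by time. The low-Alb set has only 5 arrays, 2 of them HFD, and array values carry no depth.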
